A study of Mus musculus with 24 samples.

Results

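Regions of open chromatin called at the middle of a cardiac differentiation course and at no earlier or later time were examined. Chromatin accessibility had been profiled by ATAC-seq, in which the Tn5 transposase inserts sequencing adapters into open DNA. The cells were of A2lox.cre, an established mouse embryonic stem cell line built for the insertion of inducible transgenes, and the labels name no further allele. The 24 samples were 2 replicates at each of 12 time points, namely the 2i stage (pluripotent cells, in the field usually kept with a pair of kinase inhibitors), each day from 0 to 8 (written D0 to D8), and days 10 and 15 (D10, D15). The labels call the cells mouse embryonic stem cells at 2i, intermediates of cardiac differentiation from D0 to D8, and cardiomyocytes at D10 and D15, without the agents of the differentiation. Both replicates of a time point point to the same peak list in the labels. No value therefore has an SD, and no difference between time points was tested.

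All peaks of the 12 lists were merged into 128679 regions on mm10, and a list holds a region if any of its peaks overlaps it by 1 bp. The regions described here, called D4-D5 regions, are those held by both the D4 and the D5 list and by none of 2i, D0, D1, D2, D3, D7, D8, D10 and D15, with D6 left free. There were 1695 of them, which is 1.32% of all regions, 3.47% of those held by D4, 4.54% of those held by D5 and 6.78% of the 24998 held by both. The regions were chosen by the calls of those 11 lists, so their presence at D4 and D5 and their absence elsewhere is not a finding. The set depended on the peak threshold, with 1010 regions when every list was limited to peaks whose −log10 q reached 5. Not called does not mean closed: at a fold enrichment near 5, where the p-value depends on background coverage, the median −log10 p was 7.71 at D4 and 8.62 at D5, and ranged from 7.69 at 2i to 11.6 at D3 over all lists. The part of coverage in the choice of members was not tested. In these bulk samples, fewer cells with an open site and less signal per cell cannot be told apart.

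Open distal sites include enhancers, which transcription factors bind to control genes that may lie far away, and many enhancers are in use at 1 stage of development only. In cardiac differentiation of mouse embryonic stem cells, pluripotent cells pass through a state like the primitive streak, then nascent mesoderm, then cardiac progenitors before beating cells form. Nodal, BMP, Wnt, FGF and retinoic acid signals pattern these cells. The peak lists measure accessibility only, and no cell identity or expression was measured here.

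Some D4-D5 regions lay at the start of a gene. By distance, 2.12% of D4-D5 regions and 11.9% of all regions had their centre within 1 kb of either end of a coding gene. The share of all regions that overlap a promoter window is not given here, so the count of such D4-D5 regions is a description. RefSeq promoter windows of build GRCm38.p6, the assembly that mm10 names, run from 250 bases before to 50 after a gene start, and windows of 32 genes overlapped 31 of the regions. Of these genes 15 are protein-coding and 17 are not. The bases before the start that lie inside the region, where at least 100 did, are shown for 6 of the genes, because these are the sites at which the D4-D5 opening coincides with a known start. They are Cer1, the single gene of the gene lists below that had one, the other 3 protein-coding genes with the highest fold enrichment at D4, and 2 non-coding genes with the highest value among regions also called at D6. Each is written 5′ to 3′ on the strand of its gene. Capitals mark GATAA (the core of GATA factor sites), CAGATG (an E-box), TAATTA (homeobox factors), TGANTCA (AP-1) and ACAAAG (SOX factors) on either strand. These 5 of 14 motifs were picked for marking after the shares given below were seen.
Cer1: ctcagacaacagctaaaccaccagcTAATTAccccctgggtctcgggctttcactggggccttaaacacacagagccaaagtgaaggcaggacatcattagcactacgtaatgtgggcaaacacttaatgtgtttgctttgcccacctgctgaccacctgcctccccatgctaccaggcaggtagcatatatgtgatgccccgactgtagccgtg
Tyrp1: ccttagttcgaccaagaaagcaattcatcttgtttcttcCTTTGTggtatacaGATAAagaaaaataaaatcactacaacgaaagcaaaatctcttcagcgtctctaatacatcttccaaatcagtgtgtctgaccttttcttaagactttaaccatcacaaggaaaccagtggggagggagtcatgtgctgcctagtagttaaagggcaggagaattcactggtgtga
Nin: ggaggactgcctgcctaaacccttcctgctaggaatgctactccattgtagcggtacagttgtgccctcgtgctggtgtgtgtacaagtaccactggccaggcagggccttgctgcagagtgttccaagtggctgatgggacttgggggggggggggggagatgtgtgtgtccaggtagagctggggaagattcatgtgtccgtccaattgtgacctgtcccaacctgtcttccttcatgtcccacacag
Agbl1: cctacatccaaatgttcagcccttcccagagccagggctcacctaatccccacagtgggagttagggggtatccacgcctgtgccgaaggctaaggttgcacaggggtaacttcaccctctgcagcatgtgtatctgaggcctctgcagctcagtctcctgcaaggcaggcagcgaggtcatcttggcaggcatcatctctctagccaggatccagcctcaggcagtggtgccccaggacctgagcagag
2900052N01Rik: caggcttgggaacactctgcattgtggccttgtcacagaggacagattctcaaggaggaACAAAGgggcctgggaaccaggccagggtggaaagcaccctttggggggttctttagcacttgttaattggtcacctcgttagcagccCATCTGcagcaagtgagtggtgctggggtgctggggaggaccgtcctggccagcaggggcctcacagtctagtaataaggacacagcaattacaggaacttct
Rubie: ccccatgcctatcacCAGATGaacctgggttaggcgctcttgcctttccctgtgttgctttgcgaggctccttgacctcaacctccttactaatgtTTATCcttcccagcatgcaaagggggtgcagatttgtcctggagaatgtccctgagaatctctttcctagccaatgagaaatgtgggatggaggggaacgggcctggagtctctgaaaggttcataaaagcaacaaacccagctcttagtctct

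The Cer1 sequence is chr4:82885152-82885366 on the minus strand, with 1 homeobox match and 4 CpG dinucleotides. Cer1 encodes a secreted antagonist of Nodal, BMP and Wnt signals that is made next to the early embryonic mesoderm. Its start lay in the region chr4:82884975-82885366, with a fold enrichment, the authors' ratio of peak signal to background, of 4.63 at D4 and 3.72 at D5, and no call at D6. A second D4-D5 region, chr4:82885615-82886519, was centred 0.916 kb before the start, with 5.26 at D4, 4.39 at D5 and 4.73 at D6. These were the only 2 regions within 50 kb assigned to Cer1, and regions nearer to another gene are not counted. Of the 12 lists, only D4, D5 and D6 had a region within 1 kb of an end of Cer1.

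Tyrp1 encodes an enzyme of melanin synthesis, and its sequence is chr4:80833984-80834212 on the plus strand. It has 1 GATA and 1 SOX match, and its region had 9.29-fold enrichment at D4 and 3.08 at D5. The Nin sequence, chr12:70102855-70103104 on the minus strand, has no marked match. Nin encodes ninein, a protein of the centrosome, and its region had 9.03 at D4 and 4.27 at D5. The Agbl1 sequence, chr7:76229637-76229886 on the plus strand, also has no marked match, and its region had 8.44 at D4 and 7.13 at D5. None of the 3 regions was called at D6. The non-coding gene 2900052N01Rik, at chr9:46913353-46913602 on the plus strand, has 1 E-box and 1 SOX match. Its region had 7.13 at D4, 7.55 at D5 and 5.63 at D6. Rubie, a long non-coding RNA transcribed near Bmp4, has its sequence at chr14:46575852-46576101 on the minus strand, with 1 GATA match and 1 E-box. Its region had 5.90 at D4, 4.05 at D5 and 4.10 at D6.

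Motif letters were counted in the whole 300-base windows, on both strands, where a base could count for more than 1 motif. GATAA was in 18 of the 32 windows that overlapped D4-D5 regions, 56.2% (Wilson 95% interval 39.3 to 71.8%), against 13.7% of the 13961 windows that overlapped other regions held by D4 and D5 and 25.4% of all 32851 windows. CAGATG was in 37.5% (22.9 to 54.7%), against 10.4% and 17.2%. ACAAAG was in 40.6% (25.5 to 57.7%), against 11.9% and 18.7%. TGANTCA was in 25% (13.3 to 42.1%), against 4.00% and 7.81%. TAATTA was in 15.6% (6.86 to 31.8%), against 2.15% and 5.29%. Other motifs had intervals that held the share of all windows. CAGCTG, another E-box, was in 9.38% (3.24 to 24.2%), against 14.8% and 16.3%. TGACAG of MEIS factors was in 15.6% (6.86 to 31.8%), against 15.7% and 19.2%, and GGAATG of TEAD factors in the same share, against 11.4% and 14.7%. The same was true of the E-box CATATG, the T-box letters GGTGTGA, the NKX letters TNAAGTG and the FOX letters GTAAACA. The letters CCGGAAG of ETS factors were in 0 of 32 windows (up to 10.7%), against 17.0% and 8.86%. The GC-rich letters CCGCCC of KLF and SP factors went the other way, with 1 of 32 windows, 3.12% (0.554 to 15.7%), against 68.2% and 35.7%. The windows differed in base composition as well: the median GC content was 49.5% at D4-D5 regions, 62.3% at other regions held by D4 and D5 and 52.7% in all windows, and the median number of CpG dinucleotides was 3, 22 and 7. The part of base composition in the motif shares was not tested. A match to letters is not a binding site.

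Peaks in D4-D5 regions were of ordinary height at D4 and low at D5. The fold enrichment of the best peak ran from 2.48 to 16.7 at D4, with a median of 5.04, and from 2.04 to 14.5 at D5, with a median of 4.32. The other 23303 regions held by D4 and D5 had medians of 6.48 at D4 and 7.87 at D5. Ranked within its own list, the median D4-D5 region was at the 55.6th percentile of the D4 peaks and the 31.8th of the D5 peaks, against the 73.1st and 69.5th for the other regions. Of the D4-D5 regions 57.9% were above the middle of the D4 list and 26.3% above the middle of the D5 list. These heights come from the lists that chose the members and are a description.

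**Figure D1:**
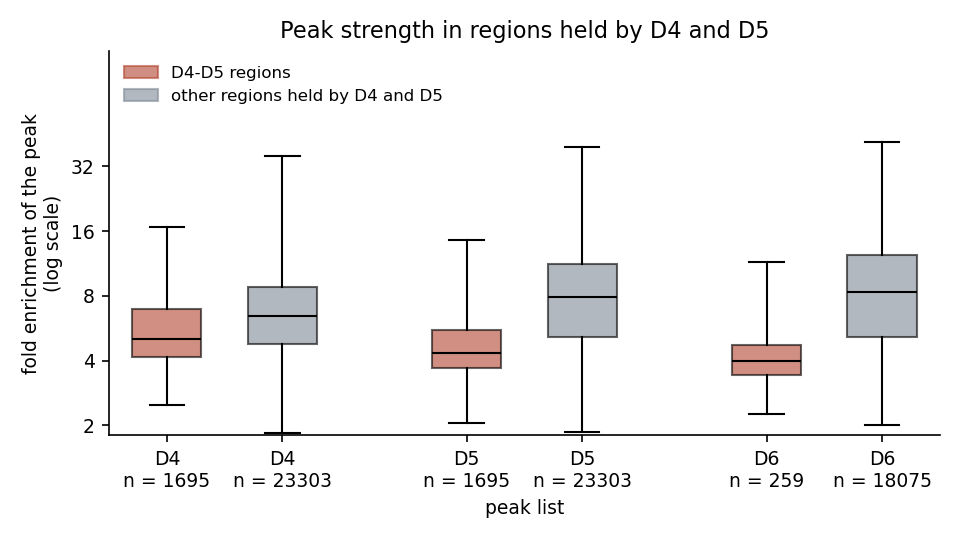
Fold enrichment of the best peak (authors' values, log scale) in the D4, D5 and D6 lists, for D4-D5 regions on the left of each pair and the other regions held by D4 and D5 on the right. Lines are medians, boxes quartiles and whiskers the lowest and highest values. The D4-D5 medians are 5.04, 4.32 and 3.97, each below its neighbour.

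Near the caller's threshold, which corresponds to a −log10 q of about 1.30, lay 223 D4-D5 regions with a value under 2 in at least 1 of the lists. Only 167, or 9.85%, had a −log10 q of 10 or more in both. The lowest by rank of fold enrichment, a different measure, included the region chr13:116313716-116314658, 4.50 kb right of the second heart field gene Isl1. It had a fold enrichment of 2.89 at D4 and 2.36 at D5. Its −log10 q was 5.16 at D4 and 2.61 at D5, so it is not among those under 2. Just outside the rule were 1285 regions held by D4, D5 and a single barred list. D7, the longest list, accounted for 806 of them and D3 for 171, while D15 accounted for 13. In these regions the barred peak was low too, at the 35.0th percentile of the D7 list and the 36.2nd of the D3 list by median. Without the D7 list there were 2500 D4-D5 regions.

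**Figure D2:**
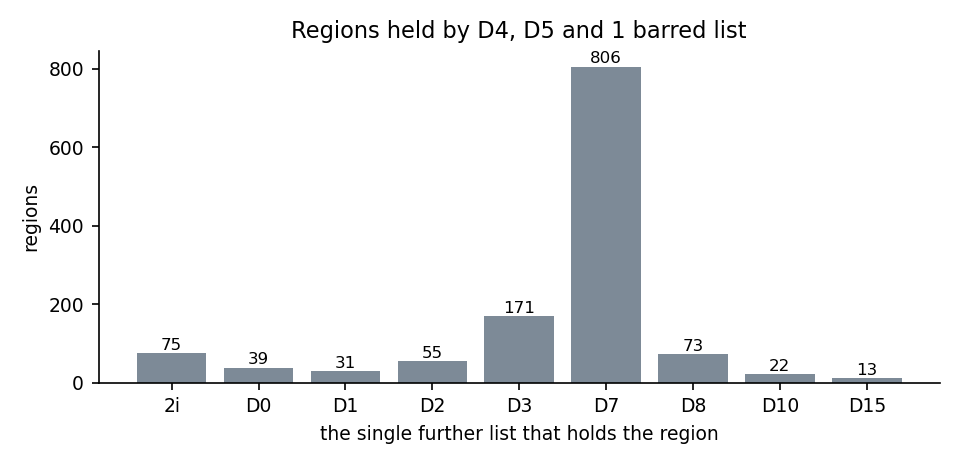
Number of regions held by D4, D5 and exactly 1 of the 9 barred lists, by that list. D7 stands out with 806 regions, D3 follows with 171 and D15 is lowest with 13.

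The D6 list was the only call that the rule did not use. It held 259 of the 1695 D4-D5 regions, 15.3% (Wilson 95% interval 13.6 to 17.1%), against 18075 of the other 23303 regions held by D4 and D5, 77.6% (77.0 to 78.1%). Over all regions held by both D4 and D5 the share was 73.3%, and over all merged regions it was 21.6%. Intervals on shares cover counting error only, and neighbouring regions of 1 list are not independent samples of a condition. The share at D6 increased with peak height: it was 8.29% (6.38 to 10.7%) where the lower of the D4 and D5 percentiles was up to 20, and 35.6% (28.3 to 43.5%) where it was from 60 to 80. The other regions held by D4 and D5 had 46.8% and 89.6% in the same bins. Each of those other regions has, by the rule, a call in at least 1 barred list, so the rule itself bears on this difference and nothing is read from it. Among regions with a single barred list, the share called at D6 was 23.7% (20.9 to 26.8%) where that list was D7, 39.8% (32.7 to 47.2%) where it was D3, 2.67% (0.734 to 9.21%) where it was 2i and 0 of 22 (up to 14.9%) where it was D10. The D4-D5 regions lay within the range of these classes. With lists shortened to equal length by rank, the share in D4-D5 regions was 29.9%.

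**Figure D3:**
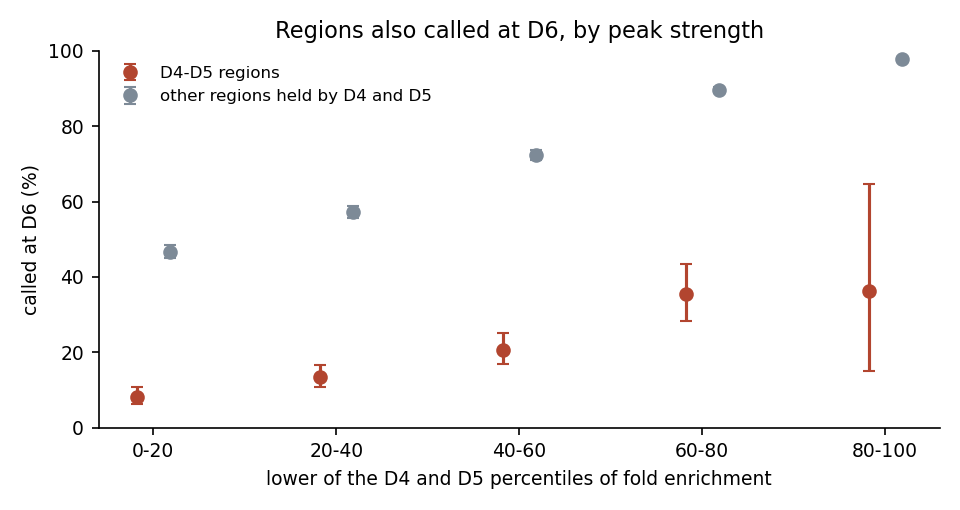
Share of regions called at D6, in percent with Wilson 95% intervals, for D4-D5 regions and for the other regions held by D4 and D5, in 5 bins of the lower of the D4 and D5 percentiles of fold enrichment. D4-D5 regions run from 8.29% to 36.4% and lie under the other regions in each bin.

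D4-D5 regions called at D6 were weak there, with a median fold enrichment of 3.97 and a highest value of 11.5, at the 32.8th percentile of the D6 list. They were higher than the remaining 1436 at the earlier times, with medians of 5.71 against 4.96 at D4 and 5.20 against 4.32 at D5. They were also wider, with a median of 669 bp against 543 bp. A smaller share of them lay over 50 kb from any protein-coding gene, 27.0% (22.0 to 32.7%) against 40.9% (38.4 to 43.4%).

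Within a region, the best summits of D4 and D5 were a median of 67 bp apart, and 40.1% (37.8 to 42.5%) were within 50 bp. In the other regions held by D4 and D5 the median was 55 bp and the share 47.4% (46.8 to 48.0%). The distance fell with peak height, to 36 bp in D4-D5 regions with a lower percentile of 60 to 80, where the other regions had 51 bp. In the 11 regions above that it was 49 bp, against 32 bp. A gap of more than 200 bp, which may join separate sites in 1 region, occurred in 14.8% of D4-D5 regions and 14.1% of the others. Single summits were the rule, in 92.9% of D4-D5 regions at D4 and 95.6% at D5, and the median width was 557 bp, against 1037 bp in the other regions, which are merged over more lists.

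D4-D5 regions were distal. Only 36 of 1695, 2.12% (1.54 to 2.93%), had their centre no more than 1 kb from either end of a coding gene, against 46.9% (46.3 to 47.5%) of the other regions held by D4 and D5 and 11.9% of all regions. A gene body held 37.4% (35.1 to 39.7%), against 64.5% (63.9 to 65.1%) and 48.2%. The share more than 50 kb away from every coding gene was 38.8% (36.5 to 41.1%), against 11.6% (11.2 to 11.99%) and 26.0%. Among those outside genes the median distance to the nearest gene was 80.6 kb, against 17.2 kb for the other regions. At a lower percentile of 60 to 80, 1.34% (0.369 to 4.76%) of D4-D5 regions were at gene ends and 40.3% (32.7 to 48.3%) were far from genes, against 55.7% (54.4 to 57.0%) and 9.87% (9.13 to 10.7%) of the others. Each of the other regions has, by the rule, a call in at least 1 barred list. The rule itself thus bears on the differences from the other regions, and nothing is read from them.

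Regions called at D4 or at D5 alone were also rarely at gene ends. Of the 15614 regions held by D4 alone 46.5% (45.7 to 47.3%) were over 50 kb from a gene and 2.09% (1.88 to 2.33%) at a gene end. That far share is above the one of D4-D5 regions, and the intervals do not overlap. For the 3085 held by D5 alone the shares were 36.0% (34.4 to 37.8%) and 2.82% (2.29 to 3.47%). D4 had the most regions of its own of the 12 lists. With 1 list per day, features of the D4 and D5 libraries and features of the cells on those days cannot be told apart in the choice of D4-D5 regions. Regions with 1 further call, at D7, were also far from genes in 33.5% (30.3 to 36.8%).

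Regions held by a pair of consecutive lists and no other give the nearest comparison. The 1436 D4-D5 regions without a D6 call, with 40.9% far from genes, stood between the pairs D2 and D3, with 14.2% (12.5 to 16.2%) of 1341 regions, and D0 and D1, with 55.1% (51.8 to 58.4%) of 873. D7 and D8, the largest class with 5281 regions, had 16.9% (15.9 to 17.9%). D5 and D6 had 17.6% (12.8 to 23.6%) of 188. Of the 11 pairs only D0 and D1, and D1 and D2 with 48.2% (40.1 to 56.4%) of 141, had a higher share than D4 and D5, and the interval of D1 and D2 overlaps that of D4 and D5. At gene ends the same D4-D5 regions had 1.88% (1.30 to 2.72%), against 7.83% (6.51 to 9.39%) at D2 and D3, the highest of the 11 pairs. D0 and D1 had 1.26% (0.705 to 2.24%) and D1 and D2 1.42% (0.390 to 5.02%), both lower than D4 and D5. Intervals that overlap that of D4 and D5 include those of 2i and D0, 2.53% (2.03 to 3.15%), and D5 and D6, 3.72% (1.82 to 7.48%). A low share at gene ends was thus not particular to D4 and D5. These intervals of D2-D3 and D4-D5 do not overlap for either share, but with 1 list per time point the difference was not tested between samples.

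**Figure D4:**
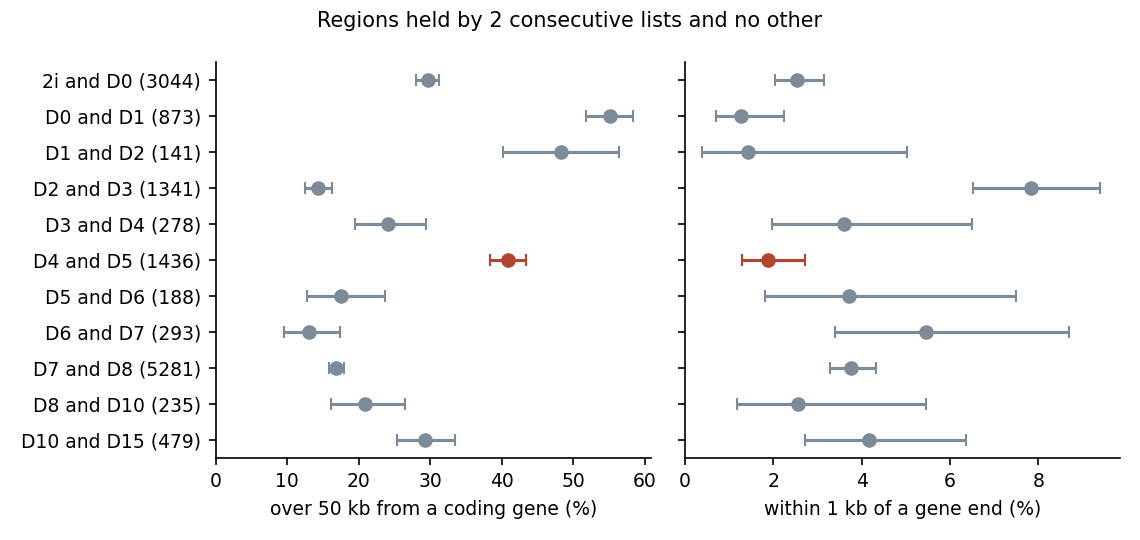
Regions held by 2 consecutive lists and by no other, with their number in brackets. Points are the percent over 50 kb from a protein-coding gene (left) and within 1 kb of a gene end (right), with Wilson 95% intervals. D4 and D5 have 40.9% and 1.88%.

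Few D4-D5 regions had a region held by D3 or by D6 close by. A region held by D3 lay within 5 kb of 10.0% (8.69 to 11.6%) of them and a region held by D6, other than the region itself, within 5 kb of 8.38% (7.15 to 9.79%). The shares were 26.2% (24.0 to 28.7%) and 21.4% (19.3 to 23.7%) for regions of D2 and D3 only, and 19.5% (18.5 to 20.6%) and 16.8% (15.8 to 17.8%) for regions of D7 and D8 only. They were lowest of these classes in regions held by D4 alone, with 6.36% (5.99 to 6.75%) and 4.93% (4.60 to 5.28%). D3 is one of the days that define the D2 and D3 class, so that value is not a like comparison. Another region held by D4 was within 5 kb of 18.0% (16.2 to 19.9%), close to the 19.8% (17.7 to 22.0%) and 19.4% (18.4 to 20.5%) of those classes. A region held by D7, the longest list, was within 5 kb of 22.4% (20.4 to 24.4%) of D4-D5 regions. The other regions held by D4 and D5 had 16.8% for D3, 14.2% for D6 and 25.7% for D7. The part of list length in these shares was not tested. All 20 chromosomes in the lists had D4-D5 regions, from 0.762% of the regions of chromosome 19 to 1.66% of those of chromosome 13.

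A gene family that was picked after its values were seen was the nearest gene of some D4-D5 regions. Olfactory, vomeronasal and trace amine receptor genes, which lie in large clusters and are silent in most cells, were the nearest gene within 50 kb of 41 of the 1695, 2.42% (1.79 to 3.26%). The share was 0.528% (0.443 to 0.629%) in the other regions held by D4 and D5 and 1.17% in all regions. It was 2.91% (2.66 to 3.18%) in regions held by D4 alone and 1.10% (0.790 to 1.54%) in those held by D5 alone. Among pairs of consecutive lists it was 3.78% at D0 and D1, 4.96% at D1 and D2 and 0.170% at D7 and D8. D4-D5 regions called at D6 had 1.16% (0.395 to 3.35%), against 2.65% (1.93 to 3.61%) of those not called at D6.

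The 12 strongest D4-D5 regions, ranked by the lower of their D4 and D5 percentiles, show how high these sites reached. The highest, chr1:71488489-71489172, had 11.5 at D4, 13.6 at D5 and 4.45 at D6 and lay 68.3 kb left of Atic, an enzyme of purine synthesis. The region chr8:17834949-17835622, in the desert 299.9 kb right of Csmd1, had 15.3 at D4 and 11.3 at D5. Both of these regions lay outside genes, more than 50 kb from the nearest.

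Of the 9 ranked lowest of the 12, those at Dnah7a, Rnf13, Clca4a, Spata16, Hdac9, Gm16527 and Hgd were inside the gene. Hdac9, a histone deacetylase that binds MEF2 factors, had 7.65 at D4, 10.1 at D5 and 7.50 at D6 at chr12:34346566-34347104. Hgd, an enzyme of tyrosine breakdown, had 14.0 at D4, 9.85 at D5 and 6.48 at D6. Spata16 had 10.1 at D4, 10.2 at D5 and 4.17 at D6. The region 1.83 kb left of the olfactory receptor gene Olfr140 had 11.3 at D4, 10.1 at D5 and 7.78 at D6, and the one 31.3 kb right of Cd209c had 10.2 at D4 and 10.1 at D5 and no call at D6. In all, 5 of the 12 were called at D6, against 15.3% of all D4-D5 regions, a share that increased with peak height.

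Few genes had several D4-D5 regions. The 1038 regions within 50 kb of a protein-coding gene, 1.09% of all regions so placed, were assigned to 909 genes, of which 806 had 1 and 20 had 3 or more. The genes with most were long. Sema6d, a semaphorin that guides cells and axons, had 5 of its 38 regions in the class over a gene of 578 kb. All 5 were inside the gene, with 4.16 to 7.25 at D4 and 3.70 to 5.55 at D5, and none was called at D6. Tenm4, a teneurin of cell contacts, had 4 of 86, Agbl1 4 of 33, the regulator of G-protein signalling Rgs7 4 of 45, and the ion exchanger gene Slc24a3 4 of 46. The Tenm4 region 3.88 kb left of the gene, chr7:96167081-96167656, had 11.9 at D4, 5.24 at D5 and 3.88 at D6.

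Genes with 3 D4-D5 regions that completed the top 15 were Btg3, Mucl2, Lrrtm3, Dtd1, Fshr, Car10, Hs6st3, Kif26b, Dlc1 and Cdh4. At the growth-inhibiting gene Btg3 they made up 3 of 4 regions. Fshr, the receptor of follicle-stimulating hormone, had 14.5 at D4 and 6.17 at D5 at chr17:89016226-89016713, the highest D4 value of its 3. Dlc1, a GTPase-activating protein, had 9.88 at D4, 4.79 at D5 and 3.06 at D6 at chr8:36596297-36596980. The 15 genes had a median length of 434 kb, against 94.8 kb for genes with at least 1 D4-D5 region and 21.1 kb for all genes with a region. Btg3 and Mucl2 were short, at 17.3 and 3.46 kb.

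Clusters were rare. Chains of D4-D5 regions less than 50 kb apart comprised 1502 single regions, 81 pairs, 9 groups of 3 and 1 group of 4. The group of 4 spanned 50.6 kb on chromosome 16, between Btg3 and D16Ertd472e. The tightest of the groups of 3 spanned 15.5 kb within Dtd1, a tRNA proofreading enzyme, and 16.9 kb within Rgs7. Others lay at Kif26b, Mucl2, Fshr, Agbl1, from inside Smap2 to inside Col9a2, and between Gm36298 and Gm5141. One group stood 302 to 346 kb left of Acvr2a, which encodes a receptor for activin and BMP ligands, with 10.7, 10.3 and 4.56 at D4 and 6.69, 5.21 and 3.68 at D5. None of the Acvr2a regions was called at D6.

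The 21 gene lists of cell types and pathways, 355 genes in all, had 40 D4-D5 regions within 50 kb, at 36 genes. These were 1.31% of the 3059 regions near listed genes, close to the 1.09% near all protein-coding genes. Of the 40 regions 13 were called at D6, against 15.3% of all D4-D5 regions. The share at D6 varied with peak height and with distance to genes. The counts called at D6 given per list below are small and are not read as differences between lists. The counts per list were 0 to 6, so the intervals are wide and no list was tested. Some regions named below were barely called at D5, near the threshold of about 1.30. The −log10 q at D5 was 1.76 at Tbx6, 1.78 at Runx1 and 1.85 at Ripply2, Fli1 and Cacna1c.

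**Figure D5:**
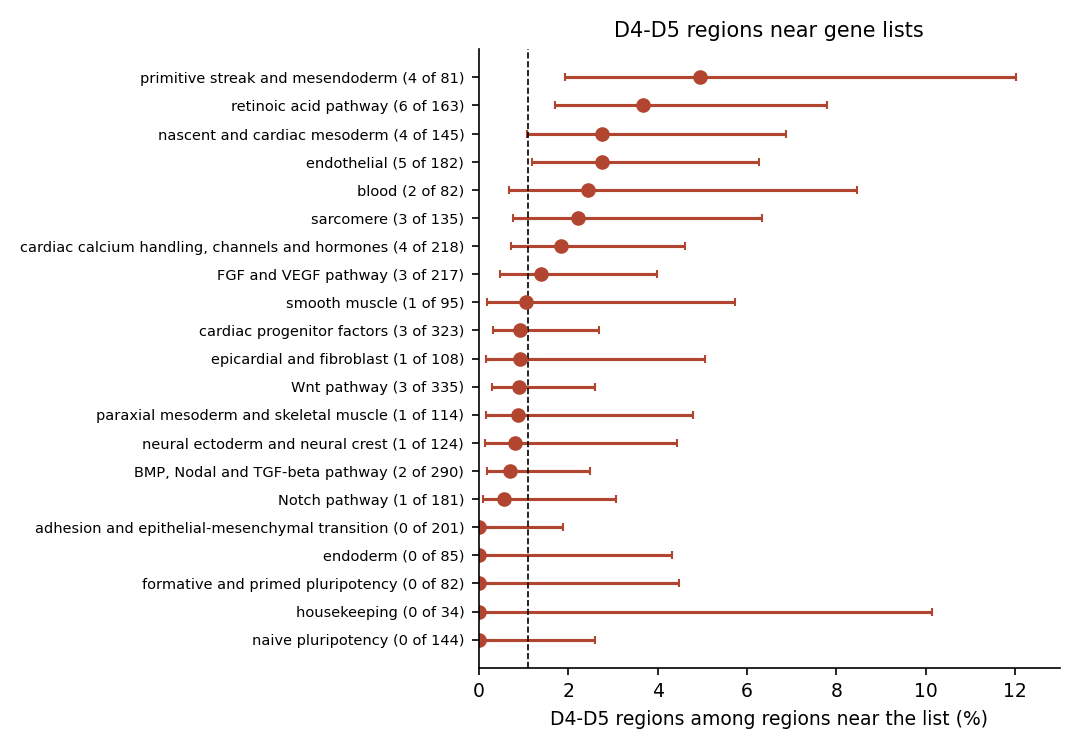
Share of D4-D5 regions among all regions within 50 kb of the genes of each list, in percent with Wilson 95% intervals and the counts in brackets. The dashed line is the 1.09% of all protein-coding genes. Primitive streak genes are highest with 4.94% and 5 lists have none.

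Primitive streak and mesendoderm genes had 4 D4-D5 regions among 81, 4.94% (1.94 to 12.02%), at 3 of 14 genes. Besides the pair at Cer1, the region chr12:104492200-104492688 lay 19.2 kb right of Gsc, a homeobox factor of the organizer. It had 5.35 at D4, 4.43 at D5 and 3.52 at D6. The region 14.3 kb right of Evx1, a homeobox factor of the posterior streak, had 4.96 at D4, 6.17 at D5 and 5.00 at D6. So 3 of the 4 were called at D6, against 15.3% of all D4-D5 regions. Gsc had 14 regions and Evx1 had 9, most of them called at other times.

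Nascent and cardiac mesoderm genes had 4 among 145, 2.76% (1.08 to 6.88%). Tbx6, a T-box factor of paraxial mesoderm, had a single region assigned to it, chr7:126784955-126785587 inside the gene, and it was a D4-D5 region. An end of Tbx6 also lay within 1 kb of regions in 7 lists, D2, D4 to D8 and D15, so open chromatin at the gene was not limited to D4 to D6. Its fold enrichment was 4.69 at D4, 2.51 at D5 and 2.54 at D6. The region 25.9 kb right of Kdr, a receptor for VEGF on mesodermal and endothelial cells, had 4.62 at D4 and 2.67 at D5. It was 1 of 20 Kdr regions, of which D4 held 3, D5 held 8 and D6 held 4. Foxc1, a forkhead factor of mesoderm, had one 8.50 kb left of the gene with 4.05 at D4 and 3.00 at D5. Ripply2, a repressor in somite formation, had one 35.2 kb left with 4.93 at D4 and 3.08 at D5. Of the 4 regions only that of Tbx6 was called at D6.

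Cardiac progenitor factors had 3 among 323, 0.929% (0.316 to 2.69%). Both Isl1 regions lacked a call at D6: besides the one of low fold enrichment named above, chr13:116259507-116260149, 38.4 kb left of the gene, had 6.32 at D4 and 3.70 at D5. Isl1 had 9 regions, of which D4 held 8, D5 held 7 and D6 held 3. The remaining region lay 46.8 kb left of Fgf10, a growth factor of the second heart field, with 4.19 at D4 and 3.87 at D5. Among 18 regulators named in every case, D4-D5 regions occurred at Isl1, Kdr and Tbx6 only, 4 of 164 regions, of which 44 were held by both D4 and D5. Mesp1, Mesp2, T, Gata4, Gata6, Hand1, Hand2, Etv2, Tbx5, Tbx20, Nkx2-5, Pdgfra, Snai1, Tal1 and Mef2c had none within 50 kb.

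Many of those regulators were called at their ends outside the window of D4 and D5. An end of Hand1, a factor of early cardiac mesoderm, had a region from D3 onwards, and ends of Hand2, Gata6, Tbx20, Isl1 and Kdr had one in all 12 lists. Regions of Tbx5, a factor of the first heart field, numbered 5 at D3, 0 at D4, 3 at D5 and 14 at D7. Regions of Nkx2-5, a cardiac homeobox factor, numbered 3 at D3, 0 at D4, 2 at D5 and 4 at D7. Both genes thus had no region called at D4. Not called does not mean closed, and at a fold enrichment near 5 the median −log10 p at D4 was 7.71. The cause of the missing calls was not tested.

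Retinoic acid pathway genes had the most, 6 among 163, 3.68% (1.70 to 7.80%), at 5 of 18 genes. Rarb, a retinoic acid receptor, had 2 inside the gene. The region chr14:16738356-16739016 had 6.96 at D4 and 3.70 at D5, and chr14:16569553-16570152 had 5.09 at D4, 5.72 at D5 and 4.52 at D6. Aldh1a2, an enzyme of retinoic acid synthesis in mesoderm, had 5.34 at D4, 4.63 at D5 and 5.84 at D6 in a region inside the gene. Cyp26a1, which degrades retinoic acid, had 4.94, 3.55 and 5.29 at D4, D5 and D6 in a region 14.8 kb to its right. Rxra, a partner of retinoic acid receptors, had 3.95, 4.96 and 5.01 in a region 35.2 kb to its left. Aldh1a1, a related enzyme, had 3.81 at D4 and 4.01 at D5 and no call at D6. So 4 of the 6 were called at D6, against 15.3% of all D4-D5 regions.

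Endothelial genes had 5 among 182, 2.75% (1.18 to 6.27%). Nrp1, a co-receptor for VEGF and semaphorins, had 2. The one inside the gene, chr8:128362464-128363402, had 3.14 at D4, 4.71 at D5 and 4.87 at D6, and the one 13.9 kb right had 3.69 at D4 and 3.80 at D5. The ETS factor genes Erg and Fli1 had 1 each inside the gene, with 4.96 and 3.43 at D4 and 4.63 and 3.08 at D5, and the Kdr region is counted here too. Blood genes had 2 among 82, 2.44% (0.671 to 8.46%). The region 2.19 kb right of Runx1, a factor of blood formation, had 6.10 at D4, 2.92 at D5 and 2.74 at D6. Its −log10 q was 1.78 at D5 and 1.35 at D6, so both calls were near the threshold. Gfi1, a repressor in blood cells, had 2.92 at D4, 3.26 at D5 and 4.16 at D6.

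Sarcomere genes had 3 among 135, 2.22% (0.759 to 6.33%). They lay inside Ttn, the giant spring protein, inside Actn2, the actinin of Z-discs, and inside Smyd1, a muscle methyltransferase. Fold enrichment was 3.33, 3.43 and 6.86 at D4 and 5.24, 4.89 and 4.63 at D5. Genes of cardiac calcium handling, channels and hormones had 4 among 218, 1.83% (0.716 to 4.62%). Slc8a1, the sodium-calcium exchanger, had 6.29 at D4 and 3.94 at D5. The regions of the calcium channel gene Cacna1c and of the calcium release channel gene Ryr2 had 5.34 and 4.84 at D4 and 3.08 and 4.02 at D5. None of these 7 regions at sarcomere and channel genes was called at D6, against 15.3% of all D4-D5 regions. Ryr2 had 33 regions and Cacna1c 30 in all.

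Signalling lists were near the background. FGF and VEGF genes had 3 among 217, Wnt genes 3 among 335, BMP, Nodal and TGF-beta genes 2 among 290 and Notch genes 1 among 181. Bmp5, a BMP ligand, had the highest of them, 7.90 at D4 and 6.48 at D5 in a region inside the gene. The lists do not hold every member of these families, so the counts cover the listed genes only. The BMP ligand Bmp6 is not listed, and chr13:38404697-38405407 inside it had 6.48 at D4, 7.78 at D5 and 6.03 at D6. D4-D5 regions also lay inside Rspo2 and Fgf14, which are not listed either. Lgr5, a receptor for R-spondins, had 6.53 at D4 and 3.70 at D5, with both summits at the same base, a distance of 0 bp. Rspo3, an R-spondin, had 5.72 at D4 and 4.94 at D5, and Axin2, a feedback inhibitor of Wnt signalling, had 5.43 at D4 and 3.49 at D5. The regions of Tgfbr3, Fgfr1 and Hey1 had 3.43, 3.67 and 5.34 at D4.

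Of the remaining lists, smooth muscle genes had 1 region, at Itga8, epicardial and fibroblast genes 1, the Aldh1a2 region above, neural genes 1, and paraxial mesoderm and skeletal muscle genes 1, at Pax7. Pax7, a factor of muscle precursors, had 3.65 at D4, 3.61 at D5 and 3.68 at D6. Naive pluripotency genes had 0 of 144 regions, formative and primed genes 0 of 82, endoderm genes 0 of 85, adhesion and epithelial-mesenchymal transition genes 0 of 201 and housekeeping genes 0 of 34. With these numbers the upper Wilson limits are 2.60%, 4.48%, 4.32%, 1.88% and 10.2%, so a share at the background of 1.09% lies within each interval.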

How the data were processed

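Chromatin was tagmented with a kit's transposase (labels' protocols). Per the submitters' processing notes, which give no order or settings, MACS2 2.1.1, Picard, SAMtools 1.5, Bowtie2 2.3.2 and cutadapt 2.10 were used with mm10. The sources used here do not give how replicates were combined, whether reads were shifted for the transposase, or the depth. The deposited lists give each peak a fold enrichment, a linear ratio to background, and a −log10 p and −log10 q, as the authors' peak caller made them. These are the authors' values and were ranked only within a list. Values of different lists are given side by side and are not a measure of change between days.

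Peaks were merged with bedtools 2.31.1. A region's value in a list is that of its highest peak, and percentiles rank fold enrichment within the list. Region centres were assigned to the protein-coding gene body that holds them, otherwise to the nearest (21627 genes, RefSeq GRCm38.p6, all 355 listed genes matched). Left and right are by coordinate, and a gene end is either annotated end. Promoter windows of chromosome 18 were not used here, and a few regions of the named genes are not reported here. Merging and assignment were tested on simulated intervals. Wilson 95% intervals came from scipy 1.17.1.

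The members and gene lists were chosen with earlier results of these data known. Named genes are the 15 with most D4-D5 regions, up to 4 per list, those at the 12 highest regions, those with 3 regions within 50 kb, and 18 regulators in every case. The genes whose sequences are shown, and the fifth gene of the retinoic acid list, were chosen after their values were seen. Alternatives changed the peak threshold, list length, overlap, region unit, lists used and distances.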

Additional observations from a re-analysis of the deposited data

How the results depend on the processing

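No paired analysis was possible because the replicates of a time point share 1 peak list, and for the same reason no replicate could be left out. Of 30 recomputed values of the 4 main results, 22 stayed within 1.5 times the count or within the interval of the share. These 22 include the values without the D6 list, which did not change because the rule leaves D6 free. They also include the counts of 1298 and 2500 given below, so the tally is no measure of stability. Restricting all lists to −log10 q values from 5 upward left 1010 D4-D5 regions, and 627 of the 1695 overlapped these. The number was 1298 with equal numbers of top peaks, where also 627 of the 1695 overlapped, 2500 without the D7 list and between 1593 and 1746 under the other alternatives. The share called at D6 was 29.9% with equal numbers of top peaks, 11.4% when peaks had to cover at least 50% of a region and 18.1% without the D7 list. The share at gene ends was 3.04% with 200 bp windows around summits and 3.72% within 2 kb. The share far from genes was 48.4% over 20 kb and 28.4% over 100 kb, and 37.0 to 39.7% under the alternatives that rebuilt or filtered the regions. Of 42 counts per gene list, 35 stayed within 1.5 times when the distance was 20 or 100 kb. Within 20 kb the counts were 2 for nascent and cardiac mesoderm, 1 for cardiac progenitor factors and 0 for FGF and VEGF and for Notch. Within 100 kb they were 4 for Notch, 3 for adhesion and 1 for endoderm. Equal list lengths and stricter peaks change which sites enter by construction, and the cause of the other shifts was not tested.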

Other observations

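A single D4-D5 region overlapped an annotated miRNA hairpin, that of Mir6540 on chromosome 16 (42303442 to 42304158), with a fold enrichment of 9.05 at D4 and 3.37 at D5. The share of all regions that overlap a hairpin is not given here, so nothing is read from this count.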
